A study of Ovis aries with 6 samples.

Results

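Named same-strand loci without annotated transcript are stretches of the sheep genome that the transcript assembly of this study reported as loci of their own, to which the deposited table gives a gene name and a strand but no transcript type. A locus was taken when a protein-coding locus on its chromosome shared a name with it and lay on the same strand, when no overlapping protein-coding locus of a shared name lay on the other strand, and when its mean over the 6 count columns was at least 10. The protein-coding locus is called the host gene here, that with the most counts where several qualified. The rule found 905 loci of 34119 in the table, on 595 host genes. Strand, name and mean count chose the loci, and the rule itself holds no difference between the groups. The loci were chosen with earlier results of these data known. A locus could also reach the minimum mean through the libraries of either group alone.

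The libraries hold RNA of granulosa cells, the somatic cells that line the ovarian follicle, from sheep (Ovis aries). There were 3 libraries of cells from atretic follicles, which are degenerating, and 3 of cells from healthy follicles, and the group was read from the initials in the titles together with the design text. Ribosomal RNA was removed from total RNA before library construction. The labels describe 3 biological replicates per group but name no treatment, breed, age or animal, so p-values measure the spread between these libraries. The study asks how granulosa cells of atretic follicles differ from those of healthy ones.

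Most of a mammalian gene is intron, which is transcribed together with the exons and cut out of the pre-mRNA. Total RNA from which only ribosomal RNA was removed keeps pre-mRNA, excised intron and transcripts without a poly(A) tail beside mature mRNA, and an assembler can report reads from such stretches as separate loci. Loci of this kind can be pieces of host pre-mRNA, alternative ends of the host transcript or independent RNAs, and the table does not say which.

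Total counts ran from 87455037 to 91597388 per library. Healthy replicate 3 stood apart: over all tested loci its biological coefficient of variation was 0.622 against healthy replicate 1 and 0.626 against healthy replicate 2, while these differed from each other by 0.281 and the atretic libraries by 0.275 to 0.301. The summed level of the granulosa markers, 7 of 8 found in the table, was 7909 to 8170 CPM (counts scaled to library size) in the other 5 libraries and 25136 CPM in healthy replicate 3. The 7 macrophage markers found of 8 summed to 312 to 369 CPM in atretic cells, and to 570, 525 and 323 CPM in healthy replicates 1, 2 and 3. The 5 stroma markers summed to 58.1 to 62.8 CPM in atretic cells, and to 142, 139 and 34.3 CPM in healthy cells. The part of these differences in the results on the loci was not tested. In bulk RNA, fewer cells of a type and less RNA per cell cannot be told apart. The granulosa sum in healthy replicate 3 rested mainly on INHBA and INHA, at 12363 and 5919 CPM. They were at 2426 to 2998 and 1307 to 1636 CPM in the other libraries. AMH was at 212 CPM in healthy replicate 3, beside 217 CPM in atretic replicate 3. These marker values were scaled to the counts on named loci alone. The CPM values of loci and hosts below also use normalization factors (TMM), so the 2 scales differ. The rank of healthy replicate 3 for AMH and for the macrophage sum depends on the scale. Values without healthy replicate 3 are given where leaving it out changed a call or moved a value.

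The loci lay inside their host genes in most cases. Of the 905 loci, 806 (89.1%) lay wholly within the host's span, 30 reached over its 5′ end, 9 over its 3′ end, 23 contained the host, 35 lay downstream and 2 upstream. The host span was divided into 4 equal bins counted from its 5′ end, and of the 806 loci 258 had their midpoint in bin 1, 245 in bin 2, 198 in bin 3 and 105 in bin 4. Of the 35 downstream loci, 19 began within 1000 bases of the host's end. The median span was 11543 bases, and the median host span was 227561 bases. The table gives no exons, so exon, intron and UTR positions of the loci are not given.

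The deposited counts and FPKM values (fragments scaled to transcript length and library size) together give the transcript length the authors used. The scale of each library was set on 970 unstranded loci, whose length then came within 1% of their span in all 970. These loci are no independent check, as they set the scale themselves, and they do not test spliced loci. Among the 905 loci the length reached at most 113.5% of the span. For the 905 loci the median length was 5846 bases. The length was under 50% of the span in 289 loci and at least 99% of it in 177, so that in the latter nearly nothing had been taken out as intron. The table lists 1 assembled transcript for 744 loci. The median FPKM, a level per length, was 1.30, and the median ratio of the FPKM of a locus to that of its host was 0.422. In 119 loci the FPKM was above that of the host.

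Strand is the property on which these loci were named, and 389 of the 905 (43.0%) were overlapped by another locus without annotated transcript on the opposite strand. In 183 loci a single such partner covered at least 90% of the span. Whether the counting used strand is not stated in the sources used here. The variation between libraries was set beside that of the sum of both strands, over the atretic libraries and healthy replicates 1 and 2. In the 183 loci the median coefficient of variation within a group was 0.251 for the locus and 0.0792 for the sum of the locus and its opposite-strand loci. Over all 389 overlapped loci it was 0.154 for the locus and 0.0835 for the sum, and in the 516 loci without such a partner it was 0.151. The sum holds more counts than the locus, and 243 of the 389 had fewer counts than their opposite-strand loci. The part of the count level in the lower variation of the sum was not tested.

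An example in single counts is the PP2A regulatory subunit gene PPP2R5E, on chromosome 7. It was chosen after its values were seen, as were the HIPK2, SNX9 and ZFPM2 loci described next. Its locus MSTRG.26766 had 5299, 0 and 12483 counts in atretic replicates 1, 2 and 3, against 7512, 6336 and 10325 in healthy replicates 1, 2 and 3. The partner on the other strand covered all of it and had 10915, 13843 and 4287 counts in atretic cells, against 5741, 7486 and 5167 in healthy cells. The partner was highest in the library where the locus was at 0 and lowest in the library where the locus was highest.

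At HIPK2, which encodes a nuclear protein kinase, locus MSTRG.23443 had 406, 4023 and 0 counts in atretic cells, against 0 in every healthy library. Its partner had 8081, 3825 and 7923 counts in atretic cells, against 7017, 6719 and 0 in healthy cells. At SNX9, a sorting nexin gene of endocytosis, locus MSTRG.27836 had 2445, 0 and 0 counts in atretic cells, against 1192, 0 and 0 in healthy cells, while its partner had 0, 2575 and 2610 and then 1726, 2854 and 1271. In both genes the strand with more counts differed between libraries of the same group, and at HIPK2 both strands were at 0 in healthy replicate 3.

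**Figure D1:**
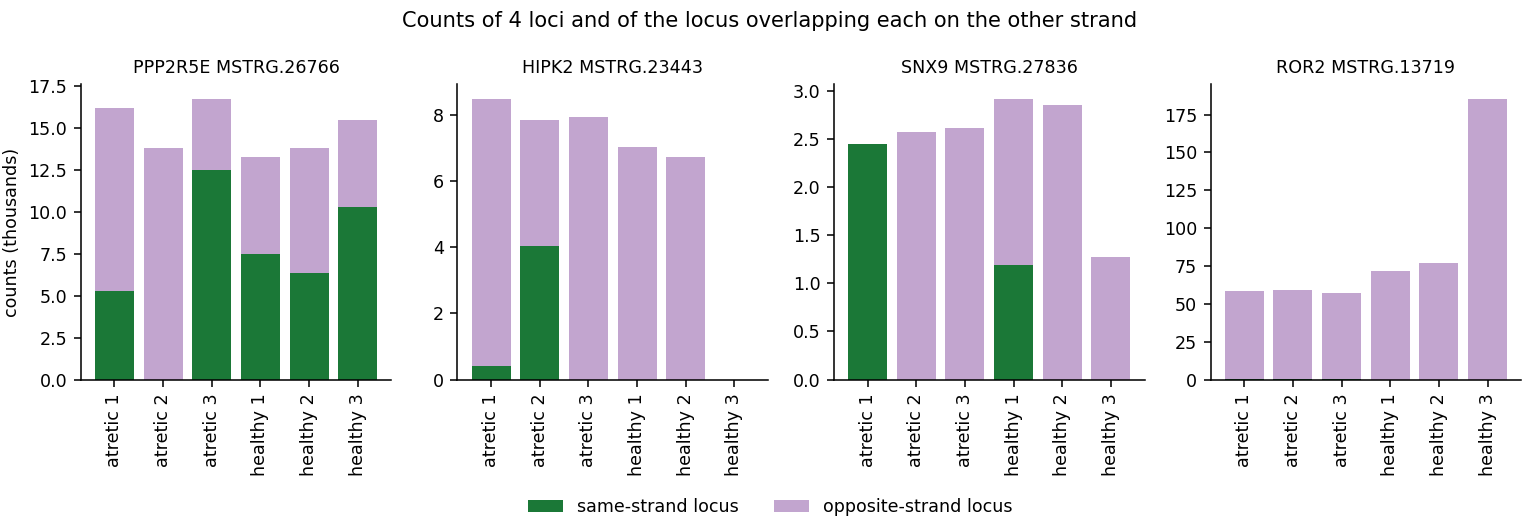
Counts (in units of 1000, linear axis from 0) in each of the 6 libraries for 4 same-strand loci (green) and for the loci that overlap them on the other strand (violet), stacked. At PPP2R5E, HIPK2 and SNX9 the division between the strands differs between libraries of 1 group, and at ROR2 the same-strand locus, at most 734 counts, is too small beside its partner, at least 56306 counts, to be seen.

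Counts of 0 in a library beside at least 100 counts in another were found in 24 of the 905 loci (2.65%), against 309 of the 21372 loci tested in all (1.45%), 0.943% of protein-coding loci and 2.69% of the named stranded loci without annotated transcript that were not chosen. Of the 24, 23 had an opposite-strand partner. The ZFPM2 locus MSTRG.28437, in the gene of a GATA cofactor, had 14828, 0 and 0 counts in atretic cells, against 0, 0 and 18653 in healthy cells. The partner of that locus had 36318, 36465 and 33621 counts in atretic cells, against 38727, 40107 and 52076 in healthy cells. Where the partner holds many counts, a difference between the groups in the locus alone and one in the division between strands cannot be told apart from the counts of the locus.

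Atretic and healthy granulosa cells were compared with edgeR's quasi-likelihood test on the counts of all 21372 named loci with a mean of at least 10 counts. None of the loci passed an adjusted p of 0.05 in either direction, 0 higher (0.00936% of all tested loci) and 0 lower (0.0% of all tested loci). The smallest adjusted p among them was 0.0965. At an unadjusted p under 0.05, 86 loci were higher (5.32% of all tested loci, 9.50% of the 905) and 13 lower (5.47% of all tested loci, 1.44% of the 905). DESeq2 called 22 higher (1.82% of all tested loci) and 5 lower (1.31% of all tested loci). Counts of 138 loci in the atretic libraries all lay above those of the healthy ones on the CPM scale (10.1% of all tested loci, 15.2% of the 905), and 20 lay below (9.21% of all tested loci, 2.21% of the 905). Among the 4343 named stranded loci without annotated transcript that were not chosen, 14.9% lay above and 4.42% below. At an unadjusted p under 0.05 by edgeR, 10.1% of these 4343 were higher and 2.39% lower.

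Without healthy replicate 3, 137 of the 905 loci rose in atretic cells at an adjusted p under 0.05 by edgeR (6.5% of all tested loci, 15.1% of the 905) and 13 fell (5.35% of all tested loci, 1.44% of the 905). Of the 4343 other named stranded loci without annotated transcript 14.8% rose and 1.96% fell. Of 12720 protein-coding loci 3.77% rose and 7.48% fell. Among the 516 same-strand loci without an opposite-strand partner 58 rose (11.2%) and 5 fell (0.969%), and among the 389 with one 79 rose (20.3%) and 8 fell (2.06%). The part of sequencing depth in these shares was not tested, and the share that rose without healthy replicate 3 was 2.65% of the 226 loci with the lowest mean counts and 32.2% of the 227 with the highest. The 137 include 2 loci, chosen after their values were seen, whose healthy counts all lay in the library left out. AUTS2 MSTRG.18874 had 5316, 671 and 1944 counts in atretic and 0, 0 and 3958 in healthy cells. DIP2C MSTRG.7767 had 10, 111 and 18 in atretic and 0, 0 and 425 in healthy cells.

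The median log2 difference of the loci, atretic over healthy (the log2 fold change), was 0.12 with all 6 libraries, beside -0.03 over all tested loci. Without healthy replicate 3 it was 0.32, beside 0.00. The 4343 other named stranded loci without annotated transcript had medians of 0.05 and, without healthy replicate 3, 0.25. The 1911 named unstranded loci without annotated transcript had medians of 0.01 and 0.19. The host genes themselves had medians of -0.05 and 0.02. Relative to each locus's mean over the libraries, the median log2 level of the loci was 0.18, -0.03 and 0.12 in atretic replicates 1, 2 and 3, -0.24 in healthy replicate 1, -0.19 in the second and 0.22 in healthy replicate 3. The 2 groups therefore overlapped through healthy replicate 3, the highest of the 6. The loci took 2.51, 2.25 and 2.44% of the counts on named loci in atretic cells, against 2.04, 2.09 and 2.45% in healthy cells, a difference of 0.209 percentage points that did not exceed the spread between libraries (exact permutation test, two-sided, p = 0.3, smallest possible p 0.1, n = 3 per group).

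**Figure D2:**
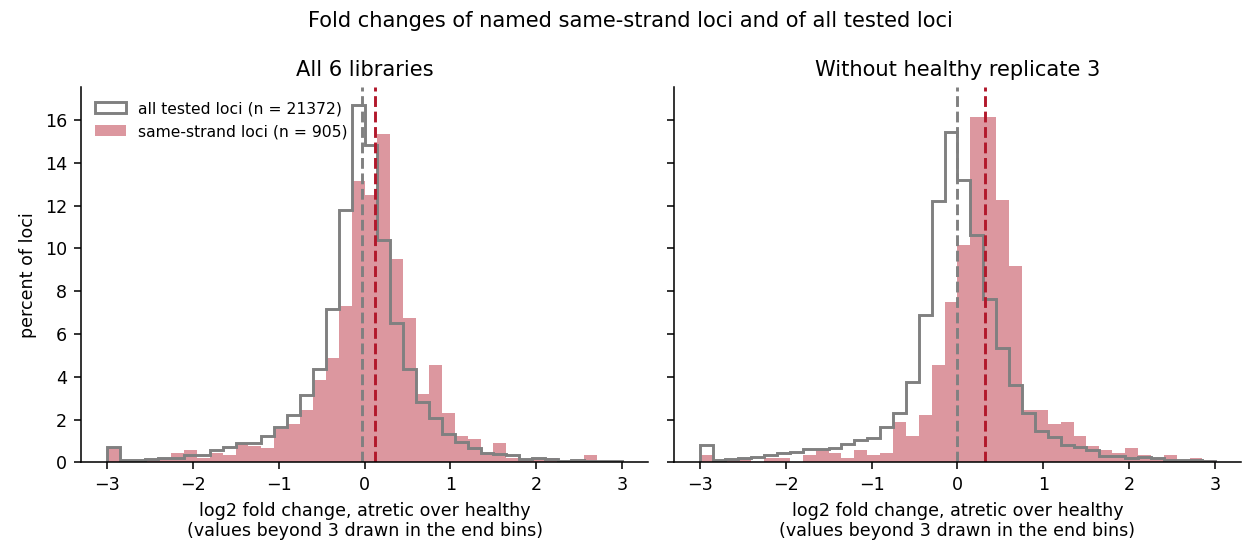
Percent of loci against log2 difference, atretic over healthy, for the 905 same-strand loci (red) and all 21372 tested loci (grey outline), with all 6 libraries on the left and without healthy replicate 3 on the right; dashed lines mark medians. The medians are 0.12 and -0.03 on the left and 0.32 and 0.00 on the right.

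The loci named next are those with the smallest unadjusted p among loci whose groups did not overlap. P3H2 encodes a prolyl 3-hydroxylase that modifies collagen, and its locus MSTRG.3956 (chromosome 1, 215659782 to 215668250, plus strand, inside the host) had no opposite-strand partner. The level was 9.54, 8.41 and 10.8 CPM in atretic replicates 1, 2 and 3, against 2.93, 3.58 and 3.40 CPM in healthy replicates 1, 2 and 3. Every atretic library was above every healthy one, with a log2 difference of 1.54 (SE 0.19, edgeR adjusted p = 0.0965, DESeq2 adjusted p = 2.1e-10; 1.56 and edgeR adjusted p = 0.0026 without healthy replicate 3). The host gene was at 12.4, 12.9 and 12.4 CPM in atretic, against 15.1, 15.2 and 11.6 CPM in healthy cells, so that its groups overlapped.

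SCARB1 encodes the scavenger receptor that takes up cholesteryl esters from high-density lipoprotein, a sterol source of steroid-making cells. The SCARB1 locus MSTRG.11381 (chromosome 17, 59922146 to 59935918, plus strand) has its midpoint 12% of the way from the 5′ end of the gene, and its length was 99% of its span. Its level was 153, 164 and 151 CPM in atretic cells, against 32.7, 25.5 and 52.8 CPM in healthy cells. The groups lay far apart, with a log2 difference of 2.08 (SE 0.27, edgeR adjusted p = 0.11; 2.42 and adjusted p = 9.5e-05 without healthy replicate 3). The SCARB1 gene itself was at 122, 137 and 116 CPM in atretic cells, against 99.9, 93.0 and 228 CPM in healthy cells, where healthy replicate 3 was the highest of the 6. Its log2 difference was -0.17 (edgeR adjusted p = 0.91), and without healthy replicate 3 the gene rose by 0.37 (adjusted p = 0.045). The partner of this locus on the other strand was small, with 96, 155 and 149 counts in atretic and 24, 27 and 40 in healthy cells, where the locus had 11667, 13404 and 11973 and then 2946, 2293 and 3664 counts.

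ELOVL6 encodes the elongase that lengthens saturated and monounsaturated fatty acids of the palmitate class. The ELOVL6 locus MSTRG.25039 (chromosome 6, 18346764 to 18374042, plus strand) was at 60.6, 48.8 and 54.5 CPM in atretic cells, against 31.0, 28.7 and 29.3 CPM in healthy cells. The log2 difference was 0.88 (SE 0.12, edgeR adjusted p = 0.12; 0.87 and adjusted p = 0.0035 without healthy replicate 3) and the groups did not overlap. The host gene was at 75.04, 72.3 and 73.9 CPM in atretic, against 89.2, 86.7 and 73.5 CPM in healthy cells. The opposite-strand loci were higher in each atretic library too, with 8076, 8463 and 8231 counts in atretic, against 4890, 5139 and 3235 in healthy cells.

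CLEC16A, a gene of endosomal traffic and mitophagy, held locus MSTRG.18551 (chromosome 24, 9875162 to 9884962, plus strand) with its midpoint 2.32% of the way from its 5′ end and no opposite-strand partner. It was at 19.5, 15.2 and 15.8 CPM in atretic cells, against 7.55, 8.92 and 9.20 CPM in healthy cells, while the host was at 37.6 to 41.1 and 32.9 to 37.9 CPM. The log2 difference was 0.98 for the locus (SE 0.17, edgeR adjusted p = 0.17; 1.03 and adjusted p = 0.0079 without healthy replicate 3) and 0.13 for the host. The potassium channel gene KCNK1 held locus MSTRG.19208, without an opposite-strand partner, which was at 15.8, 11.1 and 11.98 CPM in atretic, against 5.31, 4.61 and 3.15 CPM in healthy cells. The groups did not overlap, and the log2 difference was 1.57 (SE 0.26, edgeR adjusted p = 0.17; 1.39 and adjusted p = 0.0047 without healthy replicate 3). Its level per length, the mean FPKM, was 3.15 times that of KCNK1 itself, which was at 0.722 to 2.48 CPM in all 6.

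In 3 further loci of this group the groups did not overlap in the host either. JUNB, the 1 host of the immediate-early list, encodes a subunit of the AP-1 transcription factor, and locus MSTRG.23820 begins 5 bases beyond the end of its annotated span and is 1177 bases long. It was at 21.0, 23.2 and 20.3 CPM in atretic, against 10.3, 9.44 and 5.85 CPM in healthy cells, and JUNB was at 119, 146 and 112 CPM and at 57.9, 47.2 and 29.9 CPM. The log2 differences were 1.33 (edgeR adjusted p = 0.18) for the locus and 1.48 (edgeR adjusted p = 0.17) for the host. Without healthy replicate 3 both passed, each with an adjusted p of 0.0017. GPHN encodes gephyrin, a scaffold of inhibitory synapses that also makes molybdenum cofactor. Its locus MSTRG.26809 was at 52.9, 43.0 and 47.9 CPM in atretic, against 29.0, 32.1 and 30.9 CPM in healthy cells, and the host at 33.9 to 37.1 against 23.6 to 25.02 CPM. Its log2 difference was 0.64 (edgeR adjusted p = 0.21; 0.65 and adjusted p = 0.013 without healthy replicate 3), and neither the GPHN nor the JUNB locus had an opposite-strand partner. The locus of the organic anion transporter gene SLCO3A1, MSTRG.11977, had a log2 difference of 0.58 (edgeR adjusted p = 0.22; adjusted p = 0.015 without healthy replicate 3) beside 0.46 for its host, with 1377 to 1747 counts in atretic and 944 to 1376 in healthy cells on the opposite strand.

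**Figure D3:**
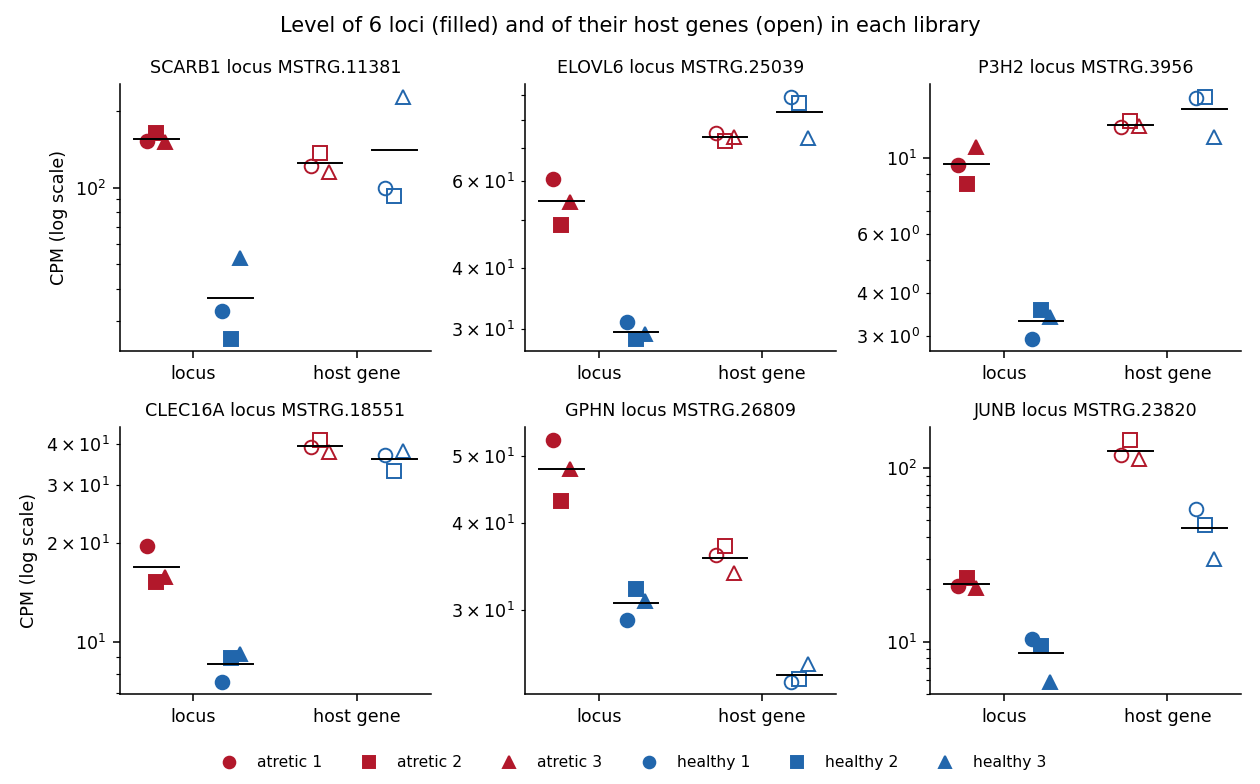
Level in CPM (log scale, a separate range in each panel) of 6 loci (filled symbols) and of their host genes (open symbols) in each atretic (red) and healthy (blue) library; black lines are group means. At SCARB1, ELOVL6, P3H2 and CLEC16A the loci separate the groups more than the hosts do, and at GPHN and JUNB the hosts separate too.

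The FBXL7 and ROR2 loci among those higher in atretic cells had large opposite-strand partners. FBXL7 encodes an F-box protein of a ubiquitin ligase, and its locus MSTRG.10873 was at 5.96, 21.7 and 7.31 CPM in atretic, against 1.41, 0.622 and 1.74 CPM in healthy cells, or 455, 1768 and 581 against 127, 56 and 121 counts. Its opposite-strand partners had 75513 to 81318 counts in atretic, against 82347 to 87912 in healthy cells. ROR2 encodes a receptor tyrosine kinase for WNT5A, and its locus MSTRG.13719 had 545, 416 and 734 counts in atretic, against 0, 2 and 15 in healthy cells. The partner that covered all of it had 56306 to 58750 counts in atretic, against 71853, 76976 and 185554 in healthy cells. These 2 loci held a small share of the counts of their stretch, and without healthy replicate 3 both rose (edgeR adjusted p = 0.016 for FBXL7 and 0.000205 for ROR2). The ROR2 locus met the minimum mean of 10 counts through the atretic libraries alone.

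Loci on the lower side were fewer. The SBF2 locus MSTRG.9938, in the gene of a myotubularin-related protein, was at 0.904, 0.711 and 1.32 CPM in atretic, against 2.86, 2.83 and 3.18 CPM in healthy cells. The log2 difference was -1.59 (SE 0.31, edgeR adjusted p = 0.21; -1.54 and adjusted p = 0.022 without healthy replicate 3), the host was at 168.5 to 177 and 111 to 182 CPM, and the opposite-strand loci had 4108 to 9635 counts against 58 to 258 of the locus. A second ROR2 locus, MSTRG.13717, was at 6.43, 6.89 and 7.501 CPM in atretic, against 11.7, 11.4 and 38.0 CPM in healthy cells. Its log2 difference of -1.55 stood beside -1.13 for ROR2 itself, which was at 64.3 to 74.5 CPM in atretic, against 96.1 to 252 CPM in healthy cells, so that locus and host were both lower in each atretic library. Leaving out healthy replicate 3 gave -0.74 (edgeR adjusted p = 0.017) and -0.53 (adjusted p = 0.010), and the opposite-strand locus had 10 to 101 counts. The locus of the zinc finger gene ZNF827 was at 0.654 to 1.03 CPM in atretic and 1.34 to 2.53 CPM in healthy cells, and that of the pseudouridine synthase gene PUS10 at 1.14 to 1.46 and 1.51 to 2.65 CPM, each with at most 226 counts in a library. The TRHDE locus MSTRG.21120 had 0 counts in each atretic library and 14, 27 and 231 in healthy cells, with 2449 to 9631 counts on its opposite-strand loci. It met the minimum mean of 10 counts through the healthy libraries alone.

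The other lower loci lay in TRABD2B, a gene of a TraB domain protein, and in genes that the table names by an identifier. The TRABD2B locus MSTRG.2209 was at 8.66 to 15.5 CPM in atretic and 17.4 to 24.9 CPM in healthy cells, with 4830 to 49717 counts on the opposite strand. Locus MSTRG.19876 of ENSOARG00020020552 was at 10.7 to 11.4 and 16.9 to 27.2 CPM, and fell by 0.66 without healthy replicate 3 (edgeR adjusted p = 0.013). Locus MSTRG.3204 of ENSOARG00020016834 was at 0.564 to 0.931 and 1.99 to 2.77 CPM, and it fell in that fit too (-1.70, adjusted p = 0.019), beside -1.83 for its host. The remaining loci, MSTRG.19871 and MSTRG.16230, were under 0.7 CPM in every library.

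Each locus was then set against its host through the per-library log2 ratio of the 2 levels, tested with limma over 5832 pairs of a named locus without annotated transcript and a protein-coding locus of its name. Of the 905 loci, 889 had a host with enough counts. The ratio was higher in atretic libraries for 2 of the 889 (0.12% of all pairs), the loci of SCARB1 and ROR2 (MSTRG.13719), and lower for 0 (0.0% of all pairs). At an unadjusted p under 0.05 it was higher for 105 (8.76% of all pairs) and lower for 15 (1.54% of all pairs). The SCARB1 ratio differed by 2.19 log2 units (SE 0.16, limma adjusted p = 0.0078), and by 2.06 without healthy replicate 3 (adjusted p = 0.0045). The adjusted p was 0.14 without trend in limma, 0.051 without atretic replicate 1 and 0.083 without atretic replicate 2. The ROR2 locus reached the same adjusted p, on the counts and partner given above. It met the minimum mean of 10 counts through the atretic libraries alone. Its ratio in healthy replicates 1 and 2, at 0 and 2 counts, rested on the prior count of 2, so that the call adds no support of its own. The adjusted p of this locus was 0.097 without trend, 0.055 with a prior count of 0.5 and 0.061 to 0.083 without any 1 of the atretic libraries.

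The next smallest p-values of the ratio were at P3H2, 1.67 log2 units (SE 0.24, limma adjusted p = 0.069), ELOVL6, 1.04 (SE 0.15, adjusted p = 0.069), and the glycosyltransferase gene C1GALT1, 1.26 (SE 0.17, adjusted p = 0.059). The C1GALT1 locus MSTRG.22601 reaches over the 3′ end of its host and was at 54.0, 44.7 and 54.3 CPM in atretic, against 15.2, 21.6 and 39.0 CPM in healthy cells, while C1GALT1 was at 78.4 to 98.5 and 77.8 to 142 CPM. The log2 difference of the locus itself was 1.01 (edgeR adjusted p = 0.38; 1.47 and adjusted p = 0.0021 without healthy replicate 3). Its opposite-strand loci were lower in healthy libraries too, with 4509 to 4843 counts in atretic, against 2000 to 3457 in healthy cells. Without healthy replicate 3 the 3 ratios passed, with adjusted p-values of 0.021, 0.018 and 0.021. The locus of the Rab GTPase-activating protein gene TBC1D1, MSTRG.25324, was at 28.7 to 36.5 CPM in atretic and 19.2 to 25.5 CPM in healthy cells, with a ratio difference of 0.88 (adjusted p = 0.13). In the fit without healthy replicate 3, 14 of the 889 ratios were higher (1.51% of all pairs) and 3 lower (0.103% of all pairs).

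Over all 889 pairs the median ratio difference was 0.16 log2 units, beside 0.13 over all 5832 pairs, and 0.27 beside 0.24 without healthy replicate 3. Locus and host fold changes had a Spearman rho of 0.463 over the 889 pairs, and of 0.217 without healthy replicate 3. These points share libraries and in part hosts, and the coefficient is a description. Of the 137 loci that rose without healthy replicate 3, 36 had a host that rose too, 2 had a host that fell, and the 137 lay on 110 hosts. In that fit 8.61% of the 581 tested hosts rose and 4.13% fell (6.5% and 5.35% of all tested loci). The smallest p-values on the lower side were at SBF2, with a ratio difference of -1.80 (limma adjusted p = 0.16), at 2 loci of the glutamate receptor gene GRIA2, -1.15 (adjusted p = 0.16) and -1.28 (adjusted p = 0.30), at ZNF827, -1.01, and at MSTRG.1174 and MSTRG.9326, -0.48 and -0.71. The GRIA2 locus MSTRG.11321 passed without healthy replicate 3 (-1.70, adjusted p = 0.028), beside 6526 to 7350 counts on the opposite strand. GRIA2 was at 2.12 to 2.29 CPM in atretic, against 0.567 to 1.45 CPM in healthy cells, and its locus MSTRG.11322 was at 3.20 to 3.36 and 1.91 to 4.46 CPM.

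The locus-to-host ratio varied with the place of the locus in the host, a pattern chosen after the values were seen. The median ratio difference was 0.28, 0.18, 0.08 and 0.05 log2 units in bins 1, 2, 3 and 4 of the host span. The groups did not overlap, with atretic higher, in 153 of the 889 pairs (13.9% of all pairs), in 30.2% of the 258 in bin 1 and in 6.67% of the 105 in bin 4, and with atretic lower in 28 of the 889 (3.41% of all pairs). Each ratio was then taken relative to the mean of its pair over the 6 libraries. The median of these relative ratios in bin 1 minus that in bin 4 was 0.159, 0.0473 and 0.142 log2 units in atretic replicates 1, 2 and 3. It was -0.0825, -0.0219 and -0.309 in healthy replicates 1, 2 and 3. Values centred in this way lie around 0, so their signs are not a result of their own. Every atretic value was above every healthy one, with a difference in means of 0.254 (exact permutation test, two-sided, p = 0.1, the smallest p that 3 against 3 allows).

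With 1 locus per host that difference was 0.267, and over loci without an opposite-strand partner it was 0.315, with 122 loci in bin 1 and 70 in bin 4. Without healthy replicate 3 it was 0.173, and the medians by bin were 0.33, 0.28, 0.21 and 0.17. Within the 165 hosts that held at least 2 loci inside, the 5′-most locus had a higher log2 difference than the 3′-most in 101. The median of that difference over the 165 was 0.126 (0.060 without healthy replicate 3). The 5′-most minus the 3′-most locus was also taken in each library, as a median over hosts. The group means of these medians differed by 0.093, which did not exceed the spread between libraries (exact permutation test over the 6 library medians, two-sided, p = 0.3, n = 3 per group).

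**Figure D4:**
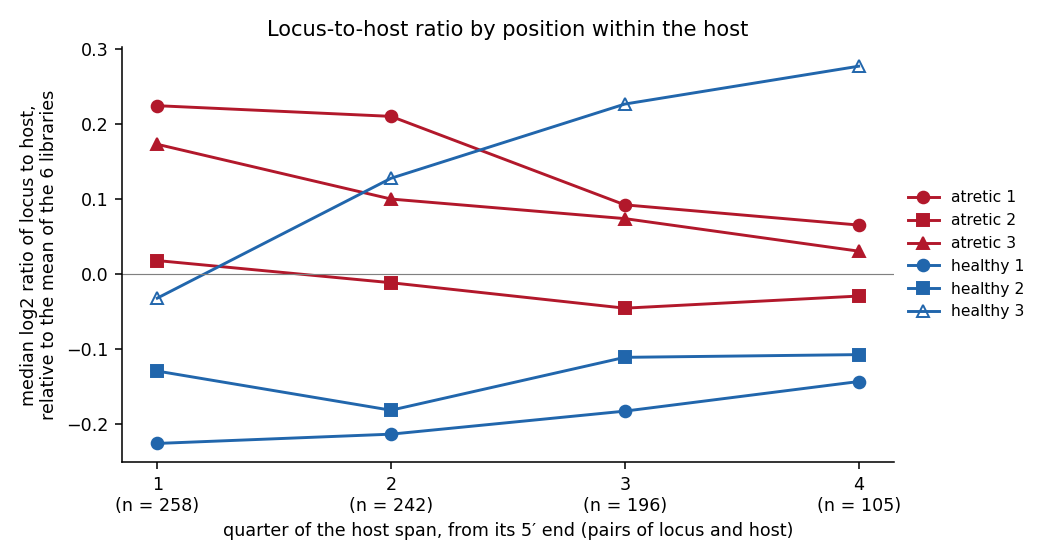
Median log2 ratio of locus to host, relative to the mean of the 6 libraries, by bin of the host span, the first of the 4 at its 5′ end, with a line for each library. The atretic lines (red) end lower in bin 4 than they begin in bin 1 and the healthy lines (blue) end higher, most of all healthy replicate 3 (open triangles).

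Of the hosts, 417 held 1 locus and 178 held at least 2, with 488 loci among them. All loci of a host had the same sign of fold change in 114 of the 178. GPC6, a cell-surface glypican gene on chromosome 10, held the most, 12 loci, of which 9 were positive and 1 had groups that did not overlap (10.1% of all tested loci, higher). The related GPC5 held 7 loci, and its downstream locus MSTRG.5174 had the highest mean count of all 905. Its level was 2261, 1924 and 2305 CPM in atretic, against 1467, 1516 and 2266 CPM in healthy cells. The groups overlapped through healthy replicate 3, and the log2 difference was 0.31 (SE 0.22, edgeR adjusted p = 0.68; 0.54 and adjusted p = 0.0091 without healthy replicate 3). The 8 loci that overlap it on the other strand had 733194 to 853023 counts in atretic and 297056 to 692565 in healthy cells, and GPC5 itself was at 3208 to 4382 CPM in 5 libraries and 11560 CPM in healthy replicate 3. The next highest mean counts were those of GSTA4 MSTRG.16122 in a glutathione transferase gene, MSTRG.1694, a second GPC5 locus MSTRG.5157, PTPRG MSTRG.13042 in a receptor phosphatase gene and KCNAB1 MSTRG.4231 in a potassium channel subunit gene. The groups of each overlapped, and the log2 differences were 0.19, -0.12, -0.21, 0.14 and -0.91 (edgeR adjusted p at least 0.743). The PTPRG locus rose by 0.43 without healthy replicate 3 (adjusted p = 0.011).

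ERBB4, the gene of a receptor tyrosine kinase for neuregulins, held 10 loci on chromosome 2, between 228520677 and 228834119 on the minus strand, all with midpoints in the first 21.6% of its span, and was chosen after its values were seen. In each of the 10 every atretic library was above every healthy one, a separation found in 10.1% of all tested loci. The first locus, MSTRG.15300, was at 93.9, 67.7 and 95.4 CPM in atretic, against 50.2, 51.5 and 17.1 CPM in healthy cells. The 10 summed to 244, 193 and 252 CPM in atretic, against 140, 152 and 54.4 CPM in healthy cells. The log2 differences ran from 0.80 to 1.31, with edgeR adjusted p-values of 0.344 to 0.533, and healthy replicate 3 was the lowest library in each. Without it they ran from 0.44 to 1.03 and 4 of the 10 rose (6.5% of all tested loci).

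The ERBB4 gene itself was at 22.6, 19.9 and 19.5 CPM in atretic, against 19.9, 22.7 and 8.31 CPM in healthy cells, so that its groups overlapped, with a log2 difference of 0.29, or -0.04 without healthy replicate 3. Of the 10 loci, 6 had no opposite-strand partner. The partner of MSTRG.15300 had 2381 to 2795 counts in atretic cells, and 3012, 2309 and 629 in healthy cells, and that shared by MSTRG.15296 and MSTRG.15298 had 4768 to 5485 and then 3759, 4189 and 1029. The partners of MSTRG.15291 had 1679 to 2123 counts in atretic and 460 to 1537 in healthy cells. The loci share 1 gene, and locus MSTRG.15290 lies within MSTRG.15289, so that they are not independent of each other.

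**Figure D5:**
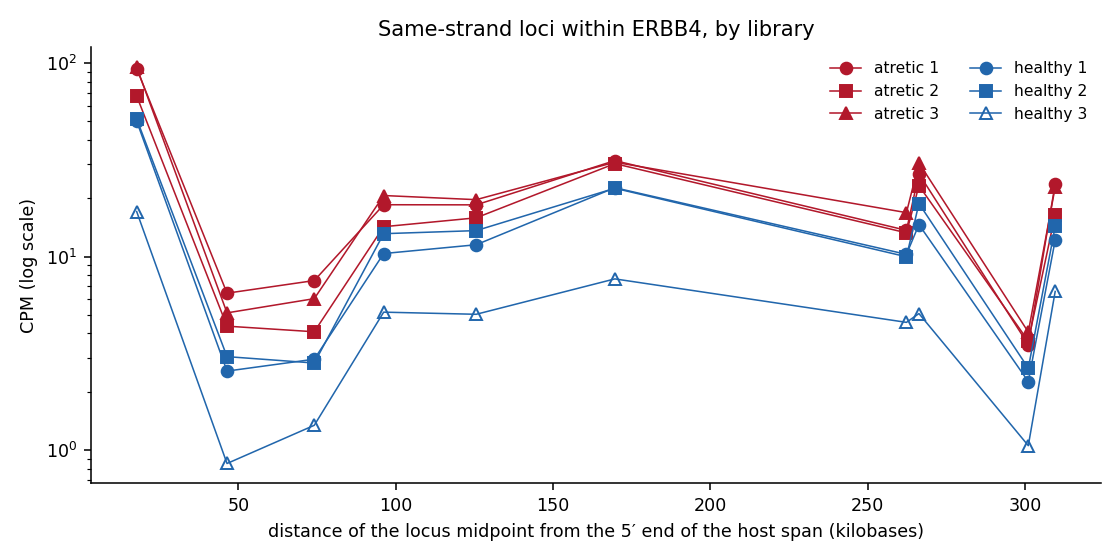
Level in CPM (log scale) of the 10 same-strand loci of ERBB4 against the distance of their midpoint from the 5′ end of the host span (kilobases); each line joins the loci of 1 library. The atretic libraries (red) lie above the healthy ones (blue) at every locus, and healthy replicate 3 (open triangles) lies lowest.

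KCNIP4, the gene of a potassium channel interacting protein, held 4 loci with values on the other side, and was chosen after its values were seen. Its locus MSTRG.25250, without an opposite-strand partner, was at 8.66, 8.26 and 8.48 CPM in atretic cells, against 18.2, 19.7 and 1.22 CPM in healthy cells. The host was at 117, 214 and 219 CPM and at 446, 472 and 15.5 CPM. Healthy replicate 3 was below the atretic libraries at both. Without it the locus had a log2 difference of -1.16 and an adjusted p of 0.0013, the host one of -1.32, and 2 of the 4 loci fell (5.35% of all tested loci).

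Gene lists written for granulosa cells and atresia, 16 in all, contained few hosts. The granulosa lineage, endothelial, macrophage, T and B cell, red cell and oocyte, heat shock, cholesterol synthesis, proliferation, and splicing lists contained none. Of the luteal and ovulatory list, LHCGR, EREG and TNFAIP6 were hosts of 1 locus each. The locus of LHCGR, the luteinising hormone receptor gene, was at 2.40, 2.48 and 1.98 CPM in atretic, against 1.19, 0.700 and 49.6 CPM in healthy cells, and LHCGR itself at 42.3 to 43.1 CPM and at 17.5, 10.6 and 304 CPM. Locus and host were both highest in healthy replicate 3 and both lowest in healthy replicates 1 and 2. The log2 difference of the locus was -2.91 (edgeR adjusted p = 0.56), and 1.27 without healthy replicate 3 (adjusted p = 0.047). The EREG and TNFAIP6 loci were at or under 0.692 CPM in every library.

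The insulin, PI3K and FOXO list included the hosts PAPPA and IGF1R. PAPPA encodes the protease that frees insulin-like growth factor from its binding proteins. The PAPPA locus was at 9.08, 7.27 and 6.33 CPM in atretic, against 4.09, 3.59 and 124 CPM in healthy cells, and the host at 81.0, 79.2 and 74.5 CPM and at 50.7, 48.6 and 906 CPM. The log2 difference of the locus was -2.54 (edgeR adjusted p = 0.56), and 0.98 without healthy replicate 3 (adjusted p = 0.023). The IGF1R locus MSTRG.11935, in the gene of the insulin-like growth factor receptor, was at 155, 121 and 115 CPM in atretic, against 63.7, 65.0 and 135 CPM in healthy cells, with the host at 534 to 611 CPM in all 6, and a log2 difference of 0.57 (edgeR adjusted p = 0.59; 1.02 and adjusted p = 0.0034 without healthy replicate 3). The opposite-strand loci of that IGF1R locus held more counts, 111372 to 121348 in atretic, against 106668 to 110414 in healthy cells.

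The chromatin and nuclear factor list had 6 hosts with 9 loci, ARID1B, ARID2, ASH1L, NCOA1, NCOA2 and TET2. Their median log2 difference was 0.14 (0.27 without healthy replicate 3), and 1 of the 9 rose without healthy replicate 3 (6.5% of all tested loci), that of the chromatin remodelling subunit gene ARID2. The ARID2 locus was at 97.8, 87.3 and 105 CPM in atretic, against 69.8, 76.1 and 114 CPM in healthy cells. The locus of the nuclear receptor coactivator gene NCOA2 was at 17.3 to 18.6 CPM in atretic, against 11.5 to 15.7 CPM in healthy cells, without overlap, and its log2 difference was 0.39 (edgeR adjusted p = 0.44). In TGFBR1, a TGF-beta receptor gene, the locus was at 96.5, 84.3 and 90.6 CPM in atretic, against 60.6, 64.2 and 97.2 CPM in healthy cells, with a log2 difference of 0.29 (edgeR adjusted p = 0.67; 0.53 and adjusted p = 0.0097 without healthy replicate 3). The opposite-strand partner of that locus had 10 counts in healthy replicate 3 and 0 elsewhere, and the ARID2, NCOA2 and PAPPA loci had none. The ARID1B locus was at 19.1 to 22.7 CPM in atretic and 13.5 to 33.6 CPM in healthy cells, and the PIK3CB locus at 51.9 to 57.8 and 45.1 to 78.9 CPM. ACSL1 of the ferroptosis list had a locus at 62.1 to 69.9 and 65.0 to 85.3 CPM, and MYH11, a smooth muscle myosin gene, was the 1 host of the theca and stroma list, with 2 loci whose median log2 difference was 0.21 (-0.28 without healthy replicate 3).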

How the data were processed

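The authors deposited whole-number read counts and FPKM values per locus for the 6 libraries in 1 table, per the file headers. The submitters' processing notes name StringTie 2.1.6, HISAT2 2.0.4, cutadapt 1.9, SAMtools and FastQC 0.11.9, with no roles. The counter, strandedness, annotation and genome build are not stated in the sources used, and coordinates are the table's. The members and gene lists were chosen with earlier results of these data known. Loci without a name (8.88 to 11.5% of counts) stayed out of library sizes. Differences came from edgeR 4.0.16 (TMM, group alone, two-sided, Benjamini-Hochberg over 21372 loci) and ratios from limma 3.58.1 (trend, prior count 2). DESeq2 1.42.0, other filters, a replicate block and each library left out were alternatives. Named loci were up to 10 per direction by p among those without overlap, the 6 with the most counts, 6 ratios per direction, and up to 3 hosts per list; others are marked in the text. The summary of the insulin, PI3K and FOXO list is not reported here.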

Additional observations from a re-analysis of the deposited data

How the results depend on the processing

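Healthy replicate 3 decided most counts. With each library left out in turn, the loci called ranged from 0 to 137 higher and from 0 to 13 lower, and the median log2 difference from 0.062 to 0.319, each highest value without healthy replicate 3. Ratio calls ranged from 0 to 14 higher and from 0 to 3 lower, and the median ratio difference from 0.095 to 0.267. DESeq2 called 22 loci higher and 5 lower. The 2 ratio calls became 1 with a prior count of 0.5 and 0 without trend. They became 0 over loci with no opposite-strand partner and 1 with 1 locus per host, which follows from leaving the called loci out. Deviations of same-numbered libraries from their group means had correlations of -0.022, 0.062 and 0.010. The healthy mean of 3 libraries includes healthy replicate 3, which stood apart, so these correlations cannot show whether the libraries were paired. With a replicate block 0 loci were called in either direction, the median log2 difference was 0.164, and 1 ratio was called higher.

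Over all alternatives, 468 log2 differences of the 44 named loci kept direction and side of the threshold. A further 36 newly passed it, 22 without healthy replicate 3 and 14 with DESeq2. The 13 that changed sign did so with a library left out. Of the ratio differences 430 kept both, 4 newly passed, 9 no longer passed and 15 changed sign. The log2 difference of the PAPPA locus MSTRG.13523 was -2.54 with all libraries and ranged from -3.08 to 0.98 with 1 left out, and that of the LHCGR locus MSTRG.20756 was -2.91 and ranged from -3.47 to 1.27, the positive values without healthy replicate 3. The ranges were -0.28 to 0.28 for MSTRG.1694, -1.39 to 0.32 for KCNAB1 MSTRG.4231, -0.0106 to 0.0861 for MSTRG.9326, -0.20 to 0.25 for PIK3CB MSTRG.4374, -0.22 to 0.52 for ARID1B MSTRG.27830, -0.24 to 0.63 for MYH11 MSTRG.18658 and -0.052 to 0.61 for GRIA2 MSTRG.11322. The ratio difference ranged from -0.034 to 0.52 for GPC5 MSTRG.5157, -1.16 to 0.32 for KCNAB1, -0.59 to 0.15 for ACSL1 MSTRG.19636, -0.14 to 0.31 for PAPPA, -0.094 to 0.19 for ARID1B, -0.31 to 0.41 for MYH11, -0.42 to 0.031 for MSTRG.19876, -0.997 to 0.29 for TRABD2B MSTRG.2209, -1.32 to 0.19 for MSTRG.3204 and -0.65 to 0.58 for EREG MSTRG.25573. The cause was not tested. A mean FPKM of at least 1 left 632 loci.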
